A study of Mus musculus with 6 samples.

Results

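The probe sets described here are those of the predicted mouse gene models, whose symbols are Gm followed by digits, and of the Riken transcripts, whose symbols end in Rik. Members were the rows of the deposited value table to which the platform annotation gave exactly 1 gene symbol of either form. Of 2702 such rows, 27 repeated the values of an earlier row and were dropped. That left 2675 members of 16383 probe sets (16.3%), or 35.5% of the 7530 probe sets with 1 symbol. Of the members, 2157 carried a Gm and 518 a Rik symbol, and they named 2666 distinct symbols. The rule used names and repeated rows only, not levels or differences, though it was set with earlier results of these data known.

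Melan-a is an immortal, pigmented melanocyte line of C57BL/6 mice. All 6 cultures were grown with 200 nM of the phorbol ester TPA and lysed 24 h after transfection with 50 pmol of siRNA, 3 with siDicer, directed at Dicer, and 3 with the control siScr. In each group the arrays came from passages 47, 54 and 56, numbered as replicates 1, 2 and 3, so that every siDicer array had a siScr array of the same passage. Total RNA was hybridised to mouse Clariom D arrays, which hold probe sets for coding and noncoding transcripts. The cultures are of 1 cell line, and the submitters call the replicates biological. The comparison asks which of these transcripts differed when Dicer was targeted.

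Gm and Rik names are placeholders. Gm numbers were given to loci predicted by annotation pipelines, many of them processed pseudogenes, which are copies of messenger RNAs reinserted into the genome, or copies of small nuclear and small nucleolar RNA genes. Rik names come from full-length complementary DNA clones of the Riken collection, many of them long noncoding RNAs. Dicer is the RNase III enzyme that cuts microRNA precursors into mature microRNAs, which lower the stability and translation of target RNAs. Olfactory receptor genes are mostly silent outside the nose, so the spread of their signals is used as a gauge of background.

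RefSeq classed 1117 members as pseudogenes, 799 as long noncoding RNAs, 267 as protein coding, 224 as small nuclear RNAs and 192 as small nucleolar RNAs. A further 55 were transcribed pseudogenes, 10 were guide RNAs, 7 were miscellaneous RNAs, 3 were microRNAs and 1 was of another class. Matching to RefSeq was by Entrez number for 805 members, by symbol for 1808 and by synonym for 62, and 154 have since been given another name. Several are well known under it: 3110043O21Rik is C9orf72, a regulator of autophagy and endosomal traffic, and 1700020I14Rik is Oip5os1, the conserved long noncoding RNA also called Cyrano. By the platform annotation the members lay on chromosomes 1 (547), 2 (903), 3 (464) and 4 (761), and no others were analysed here.

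Promoter windows of 250 bases before to 50 bases after the start were found in RefSeq (GRCm38.p6) for 882 members, 645 long noncoding and 237 protein coding. The 5 windows printed here belong to members the results turn on. They are the long noncoding RNAs of highest signal, Gm14403 (chr2:177497976-177498275, plus strand) and 1700020I14Rik (chr2:119594046-119594345, plus strand), and the protein-coding member with the largest positive difference between siDicer and siScr, 3110043O21Rik (chr4:35225787-35226086, minus strand). The others are Gm6634 (chr3:70807242-70807541, minus strand) and Gm12794, now Pramel19 (chr4:101940157-101940456, plus strand), both past the threshold in the contrast of passage 47 with the later passages. Sequences run 5′ to 3′ along the gene's strand, and capitals mark CpG dinucleotides, the sites of DNA methylation that cluster in CpG islands at many active promoters.
1700020I14Rik (Oip5os1): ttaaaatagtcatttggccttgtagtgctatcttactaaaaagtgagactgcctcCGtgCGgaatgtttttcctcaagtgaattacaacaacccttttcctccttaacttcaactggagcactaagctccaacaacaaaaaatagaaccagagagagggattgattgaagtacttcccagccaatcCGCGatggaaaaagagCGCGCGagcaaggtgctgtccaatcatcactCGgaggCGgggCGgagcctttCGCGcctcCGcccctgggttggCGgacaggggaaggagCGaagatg
3110043O21Rik (C9orf72): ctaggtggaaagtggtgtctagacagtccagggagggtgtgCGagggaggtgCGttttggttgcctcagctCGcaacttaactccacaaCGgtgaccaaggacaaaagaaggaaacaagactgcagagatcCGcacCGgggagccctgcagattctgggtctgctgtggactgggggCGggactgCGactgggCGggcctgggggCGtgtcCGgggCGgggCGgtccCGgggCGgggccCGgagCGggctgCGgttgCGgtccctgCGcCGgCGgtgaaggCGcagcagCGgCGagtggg
Gm14403: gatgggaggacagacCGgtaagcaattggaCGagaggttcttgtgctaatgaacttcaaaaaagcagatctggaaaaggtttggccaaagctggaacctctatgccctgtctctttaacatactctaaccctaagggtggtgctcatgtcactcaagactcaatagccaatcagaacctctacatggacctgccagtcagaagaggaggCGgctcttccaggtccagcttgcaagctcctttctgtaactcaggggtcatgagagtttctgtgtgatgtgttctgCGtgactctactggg
Gm6634: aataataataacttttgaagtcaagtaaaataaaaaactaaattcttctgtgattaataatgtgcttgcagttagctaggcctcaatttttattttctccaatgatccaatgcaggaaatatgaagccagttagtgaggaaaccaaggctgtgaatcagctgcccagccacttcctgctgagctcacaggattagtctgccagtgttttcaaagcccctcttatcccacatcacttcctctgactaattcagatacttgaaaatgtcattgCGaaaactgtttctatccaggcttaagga
Gm12794 (Pramel19): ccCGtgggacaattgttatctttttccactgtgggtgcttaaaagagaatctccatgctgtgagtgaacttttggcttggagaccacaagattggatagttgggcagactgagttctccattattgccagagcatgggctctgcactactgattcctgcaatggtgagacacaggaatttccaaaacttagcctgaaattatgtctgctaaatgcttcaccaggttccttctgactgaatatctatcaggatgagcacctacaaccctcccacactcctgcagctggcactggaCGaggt
The windows of 3110043O21Rik and 1700020I14Rik held 25 and 15 CpG, those of Gm14403, Gm12794 and Gm6634 held 4, 2 and 1.

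Values are the deposited log2 signals, and 1 unit is a doubling of signal. Array medians over the members lay between 4.60 and 4.67, and arrays correlated over the members with r from 0.996 to 0.998 (n = 2675 probe sets, which share arrays and are not independent). Of the measured melanocyte markers, Tyrp1 (12.85), Slc24a5 (10.66), Pax3 (10.57) and Mlph (10.27) had high signals, and Lef1, a transcription factor of Wnt signalling, was at 7.28 and rose by 0.52 with siDicer (adjusted p = 0.0337). All 5 were above the gauge of background given below. Of keratinocyte, fibroblast and neuron markers, 2 of 6, 4 of 5 and 3 of 4 were above it, and none passed the test between groups. Of the 6 immune markers 5 were above it, and Ptprc, the pan-leukocyte marker, was under it at 2.84. Their mean ran from 4.58 to 4.69 in siDicer and from 4.77 to 4.80 in siScr. C1qa (-0.29), Fcer1g (-0.25), C1qb (-0.20) and Laptm5 (-0.15) were at an unadjusted p under 0.05 (limma), as were 15.7% of all probe sets. Of the immune markers 0 of 6 passed the test (limma, adjusted p from 0.176 for Fcer1g to 0.946 for Ptprc). The fibroblast markers Postn (0.25) and Col5a1 (0.19) and the keratinocyte marker Lce1a1 (-0.16, under the gauge) were at an unadjusted p under 0.05 as well. Of the Schwann markers, Pmp2 fell by 0.95 and Cdh19 rose by 0.55 (adjusted p = 0.0209 and 0.0304). The part of these markers in the results on the members was not tested.

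The 398 olfactory receptor genes centred on a median of 2.76, and 95% of them lay below 4.15, which serves as the gauge. Of the members, 1618 (60.5%) had a mean level above it, close to the 59.1% of all probe sets. Among the other probe sets with 1 symbol, olfactory and vomeronasal receptors left out, the share was 81.1%, and among probe sets without symbol 49.2%. Signals of different probe sets depend on their probes as well as on RNA. Where levels of different probe sets are ordered or set side by side below, this is an order of signals and not of amounts of RNA. On every array taken with its own gauge, between 58.5% (siScr replicate 2) and 62.1% (siDicer replicate 3) of members were above. Counted array by array, 1518 members (56.7%) were above the gauge on all 6 arrays, 960 on none and 197 on some. Gm17767 (4.154) lay just inside the gauge and Gm24963 (4.152) just outside.

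Of the 339 members over 8 log2 units, 267 were pseudogenes. Of the 1117 pseudogenes 802 (71.8%) were above the gauge, with a median of 5.55, and 23.9% were over 8. Transcribed pseudogenes were above in 40 of 55 cases. Of the 799 long noncoding RNAs 392 (49.1%) were above, with a median of 4.14, and only 2 were over 8, Gm14403 and 1700020I14Rik. Protein-coding members were above in 168 of 267 cases (62.9%), small nuclear RNAs in 105 of 224 (46.9%) and small nucleolar RNAs in 96 of 192 (50.0%). The quartiles of small nuclear RNAs lay far apart, at 2.81 and 6.67, as did those of pseudogenes, at 3.99 and 7.87. Within long noncoding RNAs the share was 52.4% for Gm and 44.7% for Rik symbols, and within protein-coding members 55.9% and 67.9%.

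**Figure D1:**
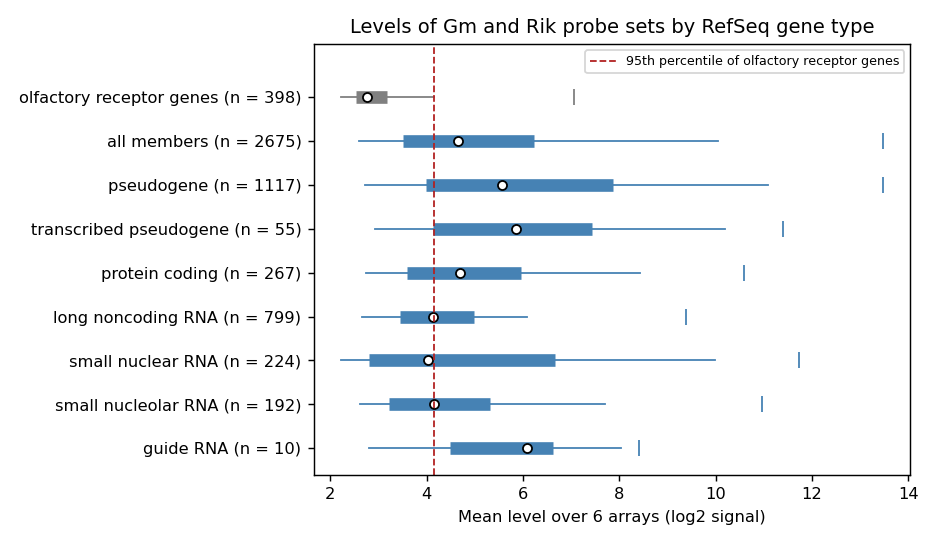
Mean level over the 6 arrays (log2 signal) by RefSeq gene type: thick bars span the quartiles, thin lines the 5th to 95th percentile, circles are medians and ticks the highest value. The dashed line is the gauge at 4.15. Pseudogenes reach furthest right (highest 13.48), while the medians of long noncoding, small nuclear and small nucleolar RNAs sit close to the line.

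The 10 members of highest level were all pseudogenes, from Gm12537 at 13.48 to Gm2574 at 12.82. Gm4609 (13.47) and Gm13292 (13.46) stood beside Gm12537, and these 3 differed between siDicer and siScr by 0.02 each. RefSeq lists mt-Atp6, the mitochondrial ATP synthase subunit gene, among the synonyms of Gm10925 (12.88), so that probe set carries the name of an abundant mitochondrial RNA. Among transcribed pseudogenes Gm5523 was highest (11.40), and among protein-coding members Gm12447 (10.59). A pseudogene shares long stretches of sequence with its parent, and whether these probes also read parent RNA was not tested. Of 33 members now named as the pseudogene of a stated parent, 24 were above the gauge, among them Gm12396 (Psenen-ps, 11.09), Gm13509 (Ap2m1-ps, 10.62) and Gm13573 (Rpl10a-ps4, 10.32). The parent itself was measured for 4 of the 33. For Gm14490 (Dnmt3b-ps1) the level was 5.22 and that of Dnmt3b, a DNA methyltransferase, 5.63, while Gm12725 (Hspd1-ps4) lay at 4.07 under the gauge and the chaperonin gene Hspd1 at 9.91.

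The brightest small nuclear RNA was Gm25189 (11.72), and the brightest small nucleolar RNA Gm24494 (10.97), whose nearest named gene is Snord45b. Copies of these genes are near-identical, and some of their rows held identical values. A block of 16 small nuclear RNA rows, Gm23934 and 15 others, held the same values throughout (10.11) and counts as 1 member. Gm24830 repeated the values of Rnu1b6, a U1 small nuclear RNA gene, at 11.58. A further block of 5 pseudogenes, Gm13693, Gm13694, Gm13696, Gm13697 and Gm13698, shared the value 8.07. Such rows cannot say which copy gave the signal. Where 1 symbol had a pair of rows with different values, which was so for 9 symbols, the rows lay from 0.01 (Gm13363) to 1.07 (C230014O12Rik) apart.

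Of members whose place overlaps a named gene of the array, 471 of 702 (67.1%) were above the gauge, and of those lying apart 1146 of 1972 (58.1%). For long noncoding RNAs the shares were 59.0% and 43.9%, for small nucleolar RNAs, which mostly sit in introns of host genes, 73.6% and 41.0%, and for pseudogenes 77.7% and 70.2%. Where the overlapped gene was itself above the gauge, 71.6% of 545 members were, and where it was not, 51.6% of 157. RNA of the overlapping gene and of the member cannot be told apart where probes lie in shared sequence. Levels of member and overlapped gene, both above the gauge, correlated with r of 0.05 over 390 pairs, a description across genes that share arrays. By type r was 0.35 for small nucleolar RNAs (33 pairs) and -0.44 for small nuclear RNAs (32 pairs). It was 0.16 for pseudogenes (135 pairs), 0.08 for long noncoding RNAs (142 pairs) and 0.17 for protein-coding members (22 pairs).

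The promoter windows described above allow a comparison by CpG content. The median member window held 5 CpG, against 7 over all 32851 mouse windows in the table. Of long noncoding RNAs with 0 to 4 CpG, 118 of 307 (38.4%) were above the gauge, and the share was 51.5% at 5 to 9, 60.7% at 10 to 19 and 73.6% (67 of 91) at 20 or more. The protein-coding members went from 47.9% (56 of 117) through 66.7% and 86.8% to 90% (36 of 40). Both types thus had their lowest share in the CpG-poorest class and their highest in the richest. A start of another gene on the other strand within 1000 bases upstream, the head-to-head arrangement typical of CpG islands, was present for 93 of 645 long noncoding RNAs, and 60.2% of these were above the gauge against 47.8% of the rest. Of the 91 CpG-richest long noncoding windows 58 had such a start, so the features overlap.

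Motifs were counted as exact letters on either strand of each window. The shares of all windows given beside them are again not matched by gene type. GGGCGG, the GC box bound by Sp1, was present in 33.4% of long noncoding windows of members above the gauge and in 13.5% of those not above, against 35.7% of all windows. TATAAA, the TATA box, was in 10.9% and 15.4%, against 13.6% of all windows. CATGTG, the E-box form found in promoters of melanocyte pigment genes, was in 15.9% and 16.3%, against 14.2%, and CACGTG in 4.69% and 7.38%, against 7.15%. CCAAT was in 32.5% and 41.5%, against 37.4%. GGGCGG contains a CpG, so its counts overlap with the CpG counts. In the 5 printed windows GGGCGG occurred in those of 1700020I14Rik and 3110043O21Rik. CCAAT occurred in all but that of 3110043O21Rik, and neither E-box form nor TATAAA occurred in any.

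**Figure D2:**
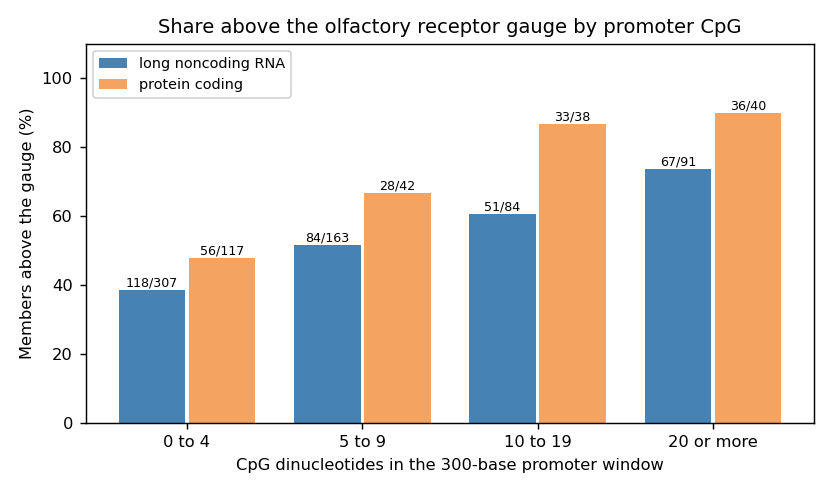
Share of members above the gauge (%, axis from 0) by the number of CpG in the 300-base window, for long noncoding RNAs and protein-coding members, with counts over the bars. The long noncoding bars go from 38.4% to 73.6% and the protein-coding bars from 47.9% to 90%.

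Members were dense in a few places. Of 636 windows of 1 Mb with members, 34 held 10 or more, and these held 403 members. Chromosome 2 had a pair of stretches rich in KRAB zinc finger genes, whose copies resemble each other closely. The one beside Etohi1, a zinc finger gene, held 16 members, 11 of them pseudogenes, and 13 were above the gauge, with a median of 7.71. Gm14414 (10.91), Gm14322 (9.68), Gm14418 (9.63) and Gm14403 (9.38) were its brightest. The stretch around Zfp345 held 15 members, 12 above the gauge, with a median of 6.27.

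Between siDicer and siScr 5 members passed the threshold. In the paired fit (limma, replicate number as a block, adjusted p under 0.05 over all probe sets) 163 of 16383 probe sets passed, 0.995%: 124 higher in siDicer (0.757%) and 39 lower (0.238%). Of the 2675 members 2 rose, the small nuclear RNA Gm22935 and the pseudogene Gm5548. The pseudogenes Gm14121, Gm7846 and Gm13930 fell. The share was 0.187% of members, beside the 0.995% of all probe sets and 93 of 4402 (2.11%) of the other probe sets with 1 symbol, receptors left out. At an unadjusted p under 0.05 there were 312 members (11.7%), against 15.7% of all probe sets. No Rik transcript, long noncoding RNA or protein-coding member passed, with 43 of 518, 68 of 799 and 38 of 267 at an unadjusted p under 0.05. Without the block 35 probe sets (0.214%) and 1 member, Gm14121, passed, 24 of them higher (0.146%) and 11 lower (0.0671%), and 196 members were at an unadjusted p under 0.05, against 10.2% of all probe sets. With the block, 2 members changed at least 1.5-fold as well (0.226% of all probe sets did), and 19 had an adjusted p under 0.1, as did 2.31% of all probe sets. Tested over the 7530 probe sets with 1 symbol alone, 34 members passed, 14 higher and 20 lower, and 3.73% of those probe sets. Without replicate 2 or without replicate 3, 0 of 16383 passed in limma, with 277 and 218 members at an unadjusted p under 0.05, and without replicate 1 there were 157, of which 2 were members.

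**Figure D3:**
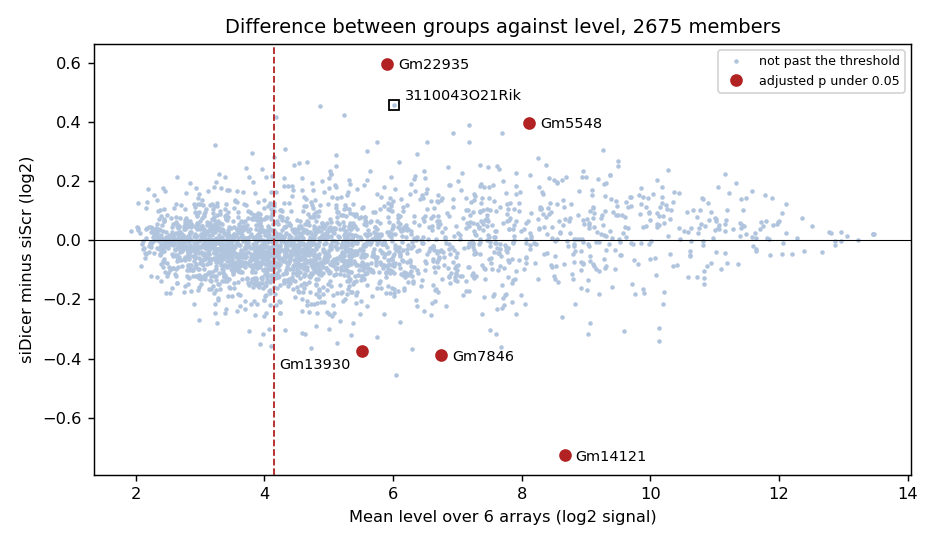
Difference between groups (siDicer minus siScr, log2) against mean level (log2 signal) for the 2675 members. Filled red points are the 5 members past the threshold, the square is 3110043O21Rik (0.46, not past it), and the dashed line is the gauge at 4.15. Most members lie close to 0, and 95% of them differ by less than 0.21 in either direction.

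Gm14121, a pseudogene near Zfp345, showed the largest fall of any member. Its level in siScr was 8.88, 9.13 and 9.09 at passages 47, 54 and 56, and in siDicer 8.22, 8.37 and 8.33. All siDicer arrays lay below all siScr arrays. Such separation is no further support for this or any other member chosen by its difference, since the choice used the same values. The share of all probe sets that separate in this way is not given here. It fell by 0.73 ± 0.06 (SE) on the log2 scale, 1.65-fold (limma, n = 3 pairs, adjusted p = 0.0226), and passed without the block as well (adjusted p = 0.0253). Zfp345, the neighbouring zinc finger gene, differed by 0.16 (adjusted p = 0.254). The other 14 members of that stretch differed by between -0.09 (E130215H24Rik) and 0.22 (Gm14139), and none of them passed.

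Gm22935, a small nuclear RNA gene, overlaps Fdps, which encodes farnesyl diphosphate synthase of the mevalonate pathway. Its siScr levels were 5.71, 5.53 and 5.57 and its siDicer levels 6.43, 6.01 and 6.17, in the order of passages. The groups did not overlap, and the array at passage 47 was highest in each. It rose by 0.60 ± 0.07 (SE), 1.51-fold (limma, n = 3 pairs, adjusted p = 0.0296), and was not past the threshold without the block (adjusted p = 0.0877). Fdps differed by 0.09 (adjusted p = 0.559).

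Gm5548, a pseudogene near the pancreatic amylase gene Amy2b, had siScr levels of 7.95, 7.83 and 7.98 and siDicer levels of 8.34, 8.16 and 8.46. Every siDicer array lay above every siScr array. It rose by 0.40 ± 0.06 (SE; limma, n = 3 pairs, adjusted p = 0.0461), with an adjusted p of 0.151 without the block. Amy2b itself was under the gauge at 2.81.

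Gm7846 and Gm13930 are pseudogenes with smaller falls. Gm7846 was at 6.95, 6.86 and 7.005 in siScr and at 6.48, 6.54 and 6.64 in siDicer. Gm13930 was at 5.61, 5.64 and 5.86 in siScr and at 5.23, 5.32 and 5.44 in siDicer. In neither did the groups overlap. Gm7846 fell by 0.39 ± 0.06 (SE) and Gm13930 by 0.37 ± 0.06 (limma, n = 3 pairs, adjusted p = 0.0489 for each), and without the block their adjusted p was 0.0877 and 0.2. Gm5548, Gm7846 and Gm13930 were also lost under quantile and under cyclic loess normalization, while Gm14121 and Gm22935 passed under both.

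**Figure D4:**
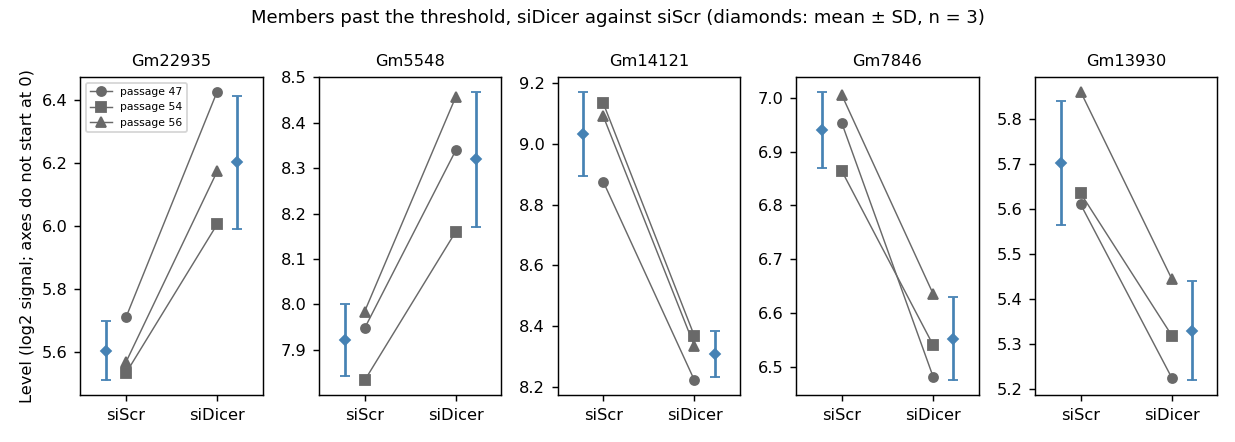
Level of the 5 members past the threshold (log2 signal, axes not starting at 0) in siScr and siDicer, with lines joining arrays of the same passage and diamonds for the mean ± SD (n = 3). In each panel the groups do not overlap, which adds no support, since these members were chosen by a test on the same values. Gm14121 goes from a mean of 9.03 to 8.31 and Gm22935 from 5.60 to 6.20.

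Other members above the gauge had differences of like size and did not pass. 3110043O21Rik (C9orf72) was at 5.78, 5.86 and 5.71 in siScr and at 6.21, 6.16 and 6.36 in siDicer. The groups did not overlap, the difference was 0.46 ± 0.08 (SE), and it was not past the threshold (limma, adjusted p = 0.0658, and 0.0672 without the block). It passed in 5 of 20 other settings, among them the looser threshold of 0.1 and the test over the 7530 probe sets with 1 symbol. The long noncoding RNA 6330407A03Rik differed by 0.45 (adjusted p = 0.129), with 1 pair, at passage 54, giving 0.78 and the others 0.32 and 0.26. Gm11786 differed by 0.42 (adjusted p = 0.0604), Gm23138, a small nuclear RNA overlapping the uridylyltransferase gene Tut4, by 0.42 (adjusted p = 0.16), Gm12387 by -0.45 (adjusted p = 0.0894) and Gm12904 by -0.37 (adjusted p = 0.155).

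The brightest long noncoding members did not pass. Gm14403 was at 9.31, 9.19 and 9.31 in siScr and at 9.45, 9.53 and 9.48 in siDicer, without overlap, a difference of 0.22 (limma, adjusted p = 0.191). It belongs to the stretch beside Etohi1, which was named after its values were seen. All 16 members of that stretch had positive differences, from 0.07 (Gm14414) to 0.28 (Gm14421), as had 44.4% of all probe sets. None of the 16 members passed the threshold. These copies resemble each other and may share probes, so their agreement is not that of 16 independent measurements. 1700020I14Rik (Oip5os1), which binds and destabilises a microRNA, was at 8.86, 8.80 and 8.88 in siScr and at 8.70, 8.82 and 8.90 in siDicer. Its groups overlapped, with a difference of -0.04 ± 0.06 (SE, adjusted p = 0.81).

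A list of 52 genes known as long noncoding RNAs under a name of their own served for comparison. Of these 8 were measured, each read from its probe set of highest mean level, and all 8 were above the gauge. Among them was Ptprv, which RefSeq classes as a transcribed pseudogene. None passed the threshold or an unadjusted p under 0.05, and the median difference was -0.04. Besides Oip5os1, the members among them were the small nucleolar RNA host gene Snhg17 (9430008C03Rik, 6.44, difference -0.01) and Morrbid (Gm14005, 6.17, difference -0.16, adjusted p = 0.343), which represses its neighbour Bcl2l11 in myeloid cells. Among the rest, Norad, which binds Pumilio proteins, was at 9.12 and differed by 0.12 (adjusted p = 0.412).

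Differences by gene type were not tested as sets. The median difference was -0.04 for the long noncoding members, of which 561 of 799 (70.2%) were lower in siDicer, beside a median of -0.01 and 55.6% lower over all probe sets. Protein-coding members were near them, with a median of -0.03 and 174 of 267 (65.2%) lower. With arrays centred, after cyclic loess or after quantile normalization 505, 476 and 505 of the 799 were lower, and 49.8%, 50.5% and 53.7% of all probe sets. Of the protein-coding members 58.8%, 58.4% and 62.5% were lower in these settings. Of the 799 long noncoding members 407 were not above the gauge. Of the olfactory receptor genes 58.8% were lower in siDicer as deposited, and 50%, 49.5% and 51.8% in these settings. Small nuclear RNAs had a median of 0.02, with 145 of 224 higher. Pseudogenes had a median of -0.01 as deposited and of 0.005 with arrays centred. Gene types also differed in the passage contrast given below. At the earliest passage 582 of the 799 long noncoding members were higher (median 0.04), beside 8974 of all 16383 probe sets. Of the small nuclear RNAs 151 of 224 were lower there (median -0.06). Whether the differences by type between siDicer and siScr belong to the siRNA was not tested.

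Differences of members were set beside those of their neighbours. Over 390 pairs of a member and the gene it overlaps, both above the gauge, the differences correlated with r of 0.06, and over 910 pairs lying apart with r of 0.03. These are descriptions across genes, since pairs share the 6 arrays. The nearest named gene of 62 members was itself past the threshold. Of the 37 above the gauge, 20 differed in the direction of that gene. 2810002D19Rik, a long noncoding RNA above the gauge that overlaps Ttc17, differed by 0.09 (adjusted p = 0.525) where Ttc17 rose by 0.66. Over 57 members with a head-to-head start of a measured gene, both above the gauge, r was 0.08. Where both genes of such a pair were members, the pair counted from each side.

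Passage 47 differed from passages 54 and 56 in 56 of 16383 probe sets (0.342%), 9 higher (0.0549%) and 47 lower (0.287%), over siDicer and siScr together. Of the members 4 passed, 0.15%, and all 4 were lower at passage 47 than in the mean of the later passages: the pseudogenes Gm15433 and Gm16340, the long noncoding RNA Gm6634 and the protein-coding Gm12794. At an unadjusted p under 0.05 there were 395 members (14.8%), against 15.5% of all probe sets. At an adjusted p under 0.1 there were 9 members, and 137 of all 16383 probe sets (0.836%). With an adjusted p under 0.05 and a difference of at least 1.5-fold there were 3 members, and 45 of all probe sets (0.275%). Passage and the day or course of each experiment cannot be told apart, and each passage has 2 arrays, a siDicer and a siScr array. The errors and p-values of this contrast rest on how these arrays disagree within passages once the siRNA difference is taken out. They do not measure how repeated cultures of the same passage would vary.

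Gm15433 was at 5.90 (siScr) and 6.41 (siDicer) at passage 47, at 7.93 and 8.08 at passage 54, and at 7.10 and 7.61 at passage 56. Its passage 47 arrays lay below all others, and passage 54 was highest. It was 2.89-fold lower at passage 47, by -1.53 ± 0.09 (SE) on the log2 scale (limma, n = 6 arrays, adjusted p = 0.00151). The nearest named gene, the transporter gene Slc16a14, differed by 0.15 (adjusted p = 0.384).

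Gm16340 is now Ifi203-ps, a pseudogene in the interferon-inducible Ifi200 family. It stood at 5.27 and 5.48 at passage 47, at 6.62 and 6.83 at passage 54, and at 5.96 and 6.34 at passage 56, siScr before siDicer. Again passage 47 was lowest and passage 54 highest. It was lower at passage 47 by -1.06 ± 0.07 (SE; limma, n = 6 arrays, adjusted p = 0.00185). The neighbouring Ifi204, an interferon-inducible DNA sensor gene looked up after these values were seen, showed the same order, at 8.35 and 8.43, 10.03 and 10.11, and 8.98 and 9.32, with a difference of -1.22 (adjusted p = 0.00185). Family members are alike in sequence, and whether the probe sets read each other's RNA was not tested.

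Gm6634, whose promoter window held 1 CpG, was at 5.69 and 5.68 at passage 47, at 6.53 and 6.69 at passage 54, and at 6.05 and 6.25 at passage 56. It was lower at passage 47 by -0.69 ± 0.07 (SE; limma, n = 6 arrays, adjusted p = 0.0172). Gm12794 (Pramel19), of the PRAME-like family, had 2 probe sets. The one past the threshold was at 4.03 and 3.88 at passage 47, at 5.03 and 4.84 at passage 54, and at 4.04 and 3.97 at passage 56, so only passage 54 stood apart. Its contrast was -0.52 ± 0.06 (SE, adjusted p = 0.0339), and that of the other probe set -0.20 (adjusted p = 0.272). Gm15433 and Gm16340 passed in every setting tried. When 1 array was left out, Gm12794 lost its call whichever of the 6 it was (adjusted p from 0.0682 to 0.19), and Gm6634 lost it without any one of the siDicer arrays or without the siScr array of passage 54 (adjusted p from 0.0508 to 0.12).

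**Figure D5:**
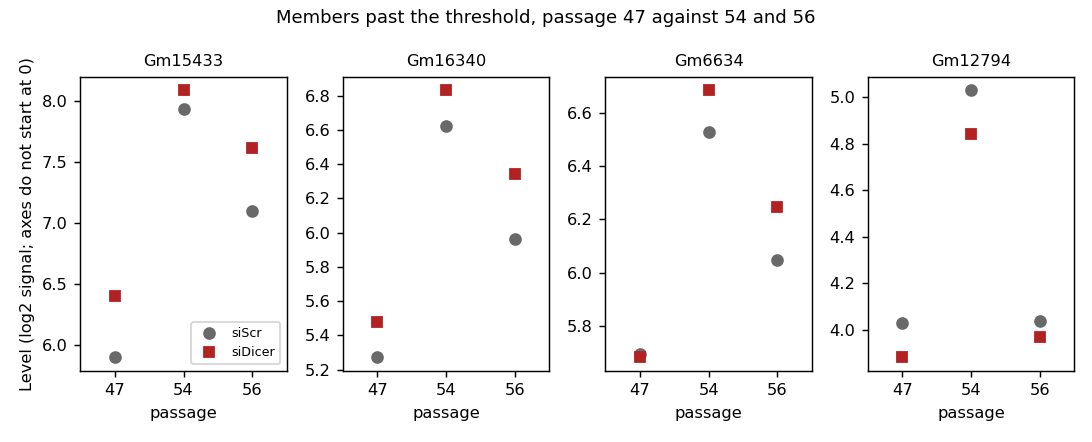
Level of the 4 members past the threshold for passage (log2 signal, axes not starting at 0) at passages 47, 54 and 56, circles for siScr and squares for siDicer. All 4 are highest at passage 54. Gm12794 at passage 56 (4.04 and 3.97) lies next to its passage 47 values (4.03 and 3.88).

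None of the 5 members that differed between siDicer and siScr passed for passage, where their contrasts ran from -0.18 (Gm14121) to 0.25 (Gm22935). The 4 passage members in turn did not pass between siDicer and siScr. Gm15433 was higher in siDicer at all 3 passages, by 0.50, 0.15 and 0.51 (adjusted p = 0.114), and Gm16340 by 0.21, 0.21 and 0.38 (adjusted p = 0.13).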

How the data were processed

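RNA from 6 cultures of Melan-a cells, 3 per siRNA, was measured on Clariom D arrays. For each probe set the authors deposited a log2 signal. Per the submitters' processing notes it was made in Affymetrix Expression Console. The program's version, the background correction, the normalization and the probe sets' genome build are not given in the sources used. Array quartiles were nearly equal, and if the arrays were scaled to each other, a shift common to most transcripts would not be seen. Gene symbols came from the platform annotation and gene types, current names and neighbours from RefSeq (GRCm38.p6). Dicer1 was not analysed here. Group membership therefore comes from the labels alone, with no check of the knockdown. Depth does not apply to arrays, and with 6 of them precision is limited.

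The test was limma (version 3.58.1, under R 4.3.3), with lmFit and then eBayes, no trend, on all 16383 probe sets as deposited, siDicer minus siScr with replicate number as a block. P-values, two-sided, were adjusted by Benjamini-Hochberg over all probe sets, and those under 0.05 were called. All adjusted p-values given are limma's. The block was used because the members were to be compared by replicate number and the labels give same-numbered arrays the same passage. Deviations from group means correlated between same-numbered arrays with r of 0.44, 0.41 and 0.24 over all probe sets and of 0.40, 0.31 and 0.24 over members. Passage 47 was set against the mean of passages 54 and 56 in the same fit. The test was checked on simulated data.

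The members and lists were chosen with earlier results of these data known. A listed gene or marker with several probe sets was read from the one of highest mean level. The naming rule took members past the threshold, the 10 of highest level, up to 5 largest rises and falls above the gauge, the 5 of highest level in each gene type with at least 10 members, nearest genes and listed markers. Members of blocks, windows, identical rows, pairs with a parent and pairs with a neighbour, the values just inside and outside the gauge, and the neighbours of the passage members were named after their values were seen. A promoter was the first listed window of a gene. Alternatives were other normalizations, filters, variance models, thresholds, gauges and left-out arrays.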

Additional observations from a re-analysis of the deposited data

How the results depend on the processing

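The share of members above the gauge, 60.5%, was 72.7% with the 90th and 40.9% with the 99th percentile of olfactory receptor genes, 58.7% with vomeronasal receptors added and 56.7% when every array had to pass its own gauge. Leaving out 1 array in turn, an alternative chosen after seeing the data, gave 60.1% to 61.2%.

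For siDicer against siScr, 5 members and 163 probe sets passed in all. With no replicate block, which ignores the pairing by passage, 1 and 35 passed. The counts were 2 and 93 after cyclic loess, 2 and 84 after quantile normalization, 10 and 295 with trend and robust estimation, and 2 and 37 with a 1.5-fold minimum. They were 19 and 378 at an adjusted p under 0.1, 20 and 388 above the median level, 12 and 292 above the gauge, and 34 and 281 over the probe sets with 1 symbol, where the variances were moderated anew as well and members at an unadjusted p under 0.05 went from 312 to 432. Leaving out 1 replicate number gave 0 to 2 members and 0 to 157 probe sets, and leaving out 1 array with no replicate block 0 to 1 and 0 to 20. Array weights (5 and 169), centring (6 and 191) and dropping identical rows (5 and 158) stayed within 1.5 times. Of the 5 members, Gm14121 was lost only where samples were left out and Gm22935 there and without the block. The 8 measured genes of the list of long noncoding RNAs had 0 past the threshold in all 21 settings.

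For passage, 4 members and 56 probe sets passed. The counts were 9 and 137 at an adjusted p under 0.1, 8 and 117 with trend and robust estimation, 10 and 153 above the median level, 7 and 108 above the gauge and 19 and 142 over probe sets with 1 symbol. Leaving out 1 array gave 2 to 4 members, of which 2 to 3 were among the 4, and 30 to 54 probe sets. Of the 15 members followed through the settings, those past a threshold and the largest differences above the gauge, none changed sign. They were chosen by their differences on these same arrays, so this adds no support. With 3 pairs, the smallest difference called among members was that of Gm13930, -0.37 log2 units. Why counts moved was not tested.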
